A study of Nothobranchius furzeri and Iconisemion striatum and Callopanchax occidentalis with 18 samples.

Results

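The miR-10 family was followed as the 8 rows of the count table whose names are miR-10 and a letter, out of 291 mature miRNAs, in all 18 small RNA libraries. The rows were chosen by name: the 5p arms miR-10a-5p, miR-10b-5p, miR-10c-5p and miR-10d-5p, and the 3p arms miR-10b-3p, miR-10b-2-3p, miR-10c-3p and miR-10d-3p. Every row held counts in at least 10 libraries.

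Genes of the miR-10 family lie inside the Hox clusters of bilaterian animals, next to the Hox4 genes, and they are transcribed along the body axis much as the neighbouring Hox genes are. In zebrafish, miR-10 is found in the trunk and represses hoxb1a and hoxb3a. Each precursor hairpin can give a mature miRNA from its 5p and its 3p arm, and in this family the 5p arm is usually the one that is kept. Duplicated precursors can share a mature 5p arm while their 3p arms differ, and by miRNA naming rules the 2 in miR-10b-2-3p marks the 3p arm of another miR-10b precursor. In the RefSeq annotation NfurGRZ-RIMD1 of Nothobranchius furzeri, 38 genes had a Hox symbol such as hoxa4a, among them 4 Hox4 genes. Hox genes listed under other kinds of name were not looked for. There hoxa4a stood between hoxa3a and hoxa5a, and hoxb4a between hoxb3a and hoxb5a. The Hox gene listed before hoxc4a was hoxc10a and the one after it hoxc5a, while hoxd4a came after hoxd3a with no Hox gene listed after it. Where the miR-10 genes themselves lie was not analysed here.

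The libraries were made from whole embryos of 8 killifish species at the somite stage, when the trunk is segmented. Annual killifish inhabit seasonal waters, and diapause is an arrest of development that lets their embryos outlast the dry season. N. furzeri, an annual species, gave 5 libraries in diapause: replicate 1 of strain MZM0403, replicates 2 and 3 of strain MZM0410, and replicates 4 and 5 of GRZ x MZZW. Replicate 3 was taken after 2 weeks of diapause, replicate 4 after 1 month and replicate 5 after 2 months. Callopanchax occidentalis and Nematolebias papilliferus, also annual and in diapause, gave 1 library each. N. furzeri not in diapause gave 3 libraries, all of strain MZM0410. Aphyosemion striatum, entered as Iconisemion striatum under organism, gave 4 libraries. Epiplatys dageti monroviae, Rivulus cylindraceus, Aplocheilus lineatus and Austrofundulus leohoignei gave 1 library each, and all 5 of these species are labelled non-annual and not in diapause. Austrofundulus is otherwise known as a genus of annual killifish; A. leohoignei was kept as labelled, and the results that this decides are also given without it or with it as annual.

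Totals ran between 371908 and 4177400 miRNA counts, so 3 counts stood for 0.718 to 8.07 RPM, the reads scaled to a fixed total of miRNA counts per library. Of the reads 18 to 33 nt long, 1.43% to 77.3% were counted on miRNAs, with E. dageti monroviae the lowest. The summed level of 8 miR-430 rows, the miRNAs of the early fish embryo, took 0.840% to 65.5% of a library. Every share here is a share of a fixed total, so some are also given outside the miR-430 rows. The part of these rows in the results below was not tested. Defining miRNAs of other tissues were low: muscle miRNAs (11 rows) took at most 0.0805%, neural miRNAs (10 rows) at most 0.647%, in N. furzeri diapause replicate 1, blood miRNAs (3 rows, at 0 in 2 libraries) at most 0.0582%, the liver miRNA at most 0.00697% and skin and epithelial miRNAs (11 rows) at most 2.85%. That library stood apart in neural miRNAs from the other diapause libraries, at 0.00509% to 0.0249%, and from N. furzeri not in diapause, at 0.0134% to 0.0139%, and it was also the highest N. furzeri library in muscle miRNAs, at 0.0359%. These lists hold no marker of the somite stage, so the labelled stage was not checked. In whole embryos, fewer cells of a type and less RNA per cell cannot be told apart.

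The family made up 5.98% to 92.6% of all miRNA counts, with a median of 70.3%. Its share was 70.4%, 70.3%, 82.8%, 92.6% and 87.5% in replicates 1 to 5 of N. furzeri in diapause, or 80.7% ± 10.1 (SD, n = 5). In N. furzeri not in diapause it was 83.5%, 64.5% and 73.9%, or 74.0% ± 9.49 (SD, n = 3). The ranges of the diapause and non-diapause libraries overlapped. A. striatum had 56.0%, 48.9%, 24.8% and 22.1%, or 37.9% ± 17.0 (SD, n = 4). All 4 A. striatum libraries lay below all N. furzeri libraries.

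Among the species with 1 library, C. occidentalis had 92.4% and N. papilliferus had 85.5%, against 48.6% in A. leohoignei, 76.0% in A. lineatus, 5.98% in R. cylindraceus and 49.0% in E. dageti monroviae. The widest 95% Wilson interval for counting error among these 6 libraries was that of E. dageti monroviae, 48.8% to 49.1%. R. cylindraceus stood far below the others, and its library was also the smallest.

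When the miR-430 rows were taken out of the total, the family held 84.9% ± 9.01 of the remaining counts in N. furzeri in diapause (n = 5) and 84.2% ± 2.85 in N. furzeri not in diapause (n = 3). It held 68.7% ± 16.2 in A. striatum (n = 4) and 17.3% in R. cylindraceus. By library, A. striatum then overlapped both N. furzeri groups. Its range was 46.4% to 84.7%, against 72.3% to 94.4% in diapause and 81.6% to 87.3% not in diapause. The miR-430 rows took 1.87% to 11.2% in N. furzeri in diapause, 4.32% to 20.9% in N. furzeri not in diapause and 33.9% to 64.1% in A. striatum.

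miR-10b-5p carried most of the family. It gave 72.9% to 90.1% of the family's counts, with a median of 83.2%, and it was the most abundant miRNA of all in 15 libraries. It ranked 2nd in A. striatum replicates 3 and 4 and 3rd in R. cylindraceus.

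Its share of all miRNA counts in N. furzeri in diapause was 57.3%, 61.0%, 69.9%, 74.9% and 69.8%, or 66.6% ± 7.20 (SD, n = 5). In N. furzeri not in diapause it was 69.2%, 56.5% and 63.0%, or 62.9% ± 6.35 (SD, n = 3). In A. striatum it was 47.5%, 37.1%, 21.5% and 18.04%, or 31.0% ± 13.8 (SD, n = 4). The 2 N. furzeri groups overlapped, and A. striatum lay below both. C. occidentalis had 72.2% and N. papilliferus had 71.5%, against 35.6% in A. leohoignei, 64.1% in A. lineatus, 5.38% in R. cylindraceus and 35.7% in E. dageti monroviae. The 3 annual species in diapause were above each non-annual species by group mean. N. furzeri diapause replicates 1 and 2 and N. furzeri not in diapause, by its mean and in replicates 2 and 3, lay below A. lineatus. Outside the miR-430 rows the mean of N. furzeri in diapause, 70.2%, was also below A. lineatus, 72.4%. C. occidentalis, at 72.8%, and N. papilliferus, at 72.5%, stayed above it. A. striatum, at 37.9% to 71.9%, then overlapped N. furzeri in diapause, at 58.8% to 76.4%, and not in diapause, at 71.5% to 72.3%.

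On the scale of TMM-scaled CPM over all 18 libraries, the groups stood in the order C. occidentalis, A. lineatus, N. furzeri not in diapause, N. furzeri in diapause, N. papilliferus, A. striatum, E. dageti monroviae, A. leohoignei and R. cylindraceus for mean log2 levels of miR-10b-5p. N. furzeri in diapause overlapped both of its neighbours in this order, and A. striatum overlapped E. dageti monroviae. The other neighbours did not overlap, but most of them rest on 1 library. Single libraries cannot overlap each other, and C. occidentalis and A. lineatus lay close, at 1.17e+06 and 1.15e+06 CPM. TMM factors ran between 0.377 and 2.86, so a TMM-scaled CPM is not a share of a library. It reached 1.99e+06 for miR-10b-5p in N. furzeri in diapause.

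miR-10d-5p, a member described in fish, was the second most abundant, at 8.36% to 20.5% of the family. It took 10.9%, 8.66%, 12.2%, 16.6% and 16.4% of all miRNA counts in N. furzeri in diapause, or 12.9% ± 3.48 (SD, n = 5). In N. furzeri not in diapause it took 13.3%, 7.80% and 10.5%, or 10.5% ± 2.78 (SD, n = 3). The ranges overlapped, with the GRZ x MZZW libraries highest. A. striatum had 7.27%, 9.61%, 2.56% and 3.17%. C. occidentalis had 18.7% and N. papilliferus had 12.7%, against 9.98% in A. leohoignei, 10.9% in A. lineatus, 0.4996% in R. cylindraceus and 9.91% in E. dageti monroviae.

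**Figure D1:**
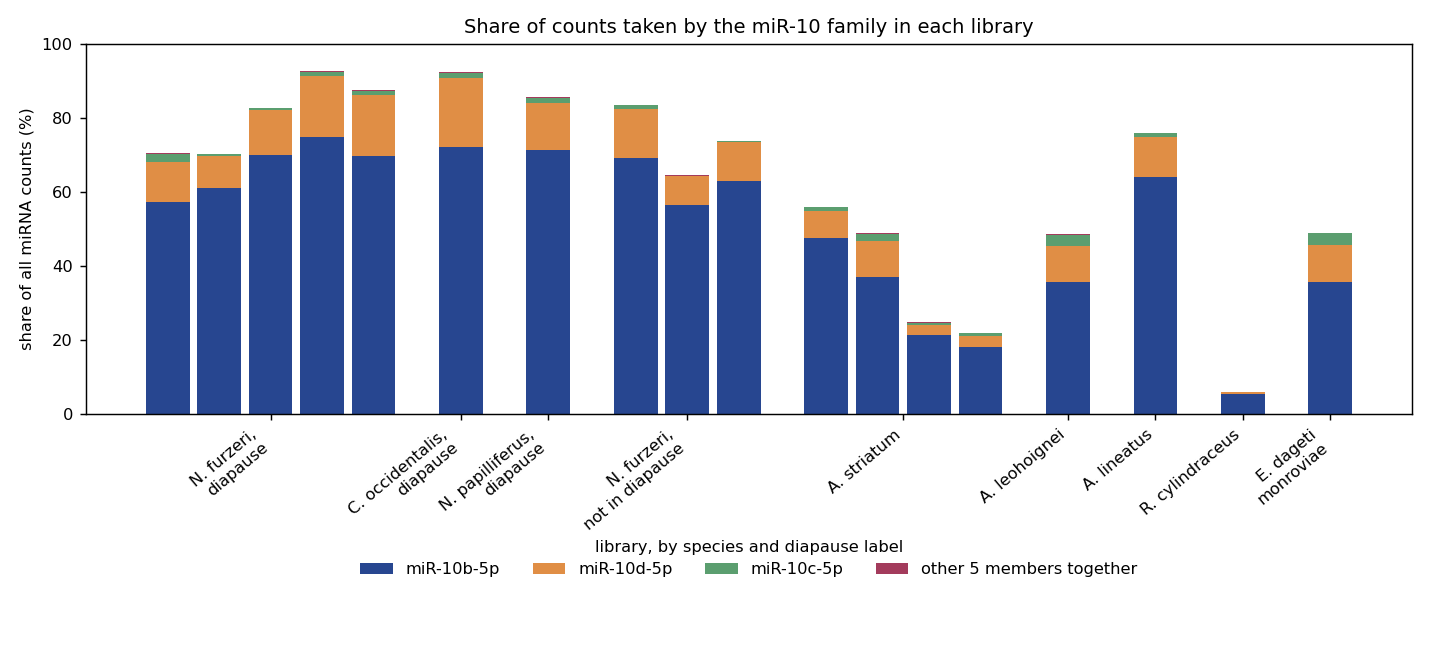
Share of all miRNA counts in percent, in each of the 18 libraries, stacked as miR-10b-5p, miR-10d-5p, miR-10c-5p and the other 5 members together. miR-10b-5p fills most of every bar, and the family's total lies between 5.98% in R. cylindraceus and 92.6% in N. furzeri in diapause, replicate 4.

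miR-10c-5p was the most variable of the 5p arms. Its level was 21415, 4826, 5594, 10319 and 12261 RPM in N. furzeri in diapause. In N. furzeri not in diapause it had 8624, 1520 and 2821 RPM. Replicate 1 not in diapause lay within the diapause range and the other non-diapause libraries lay below it.

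A. striatum had 10928, 20920.3, 6511 and 7989.6 RPM of miR-10c-5p, inside the range of N. furzeri in diapause. C. occidentalis had 14093 RPM and N. papilliferus had 12797 RPM, against 29706 RPM in A. leohoignei, 9044 RPM in A. lineatus, 522 RPM in R. cylindraceus and 32042 RPM in E. dageti monroviae. A. leohoignei and E. dageti monroviae were highest of all 18 libraries.

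miR-10a-5p was a minor member, at 86.0 to 1827 RPM. In N. furzeri in diapause it had 887, 809.8, 925, 788 and 895 RPM, and in N. furzeri not in diapause 844, 586 and 803 RPM. The ranges overlapped. A. striatum had 542, 586, 247 and 186 RPM, and only R. cylindraceus, at 86.0 RPM, was lower than its lowest library.

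The 3p arms were rare. miR-10b-3p had 1 to 120 counts a library, miR-10b-2-3p had 1 to 558, miR-10d-3p had 0 to 8 and miR-10c-3p had 0 to 7. miR-10c-3p was listed at 0 in 8 libraries and summed to 35 counts over all 18, and miR-10d-3p was at 0 in 2 libraries and summed to 49.

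miR-10b-3p had 29.5, 25.9, 19.6, 10.2 and 11.2 RPM in N. furzeri in diapause and 28.7, 21.8 and 42.8 RPM in N. furzeri not in diapause. In RPM the ranges overlapped, and both GRZ x MZZW libraries were lowest. In TMM-scaled CPM over all 18 libraries they did not overlap, at 15.4 to 27.2 in diapause and 30.7 to 55.6 not in diapause. A. striatum had 23.2, 46.1, 7.43 and 21.3 RPM.

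miR-10b-2-3p spread most widely. In N. furzeri in diapause it had 12.2, 177.8, 32.5, 0.487 and 2.40 RPM, and in N. furzeri not in diapause 20.1, 81.7 and 125.7 RPM. A. striatum had 258.9, 231.9, 101.2 and 396.5 RPM. C. occidentalis had 1.32 RPM, from 1 count, and N. papilliferus had 44.3 RPM, against 17.4 RPM in A. leohoignei, 59.1 RPM in A. lineatus, 309.2 RPM in R. cylindraceus and 564.5 RPM in E. dageti monroviae. By strain within N. furzeri, the 5 MZM0410 libraries, in and out of diapause, lay between 20.1 and 177.8 RPM, the MZM0403 library had 12.2 RPM, and the 2 GRZ x MZZW libraries had 0.487 and 2.40 RPM. The GRZ x MZZW libraries rest on 2 and 3 counts. They were also the longest in diapause of the 3 libraries with a stated duration, so strain and duration cannot be told apart. The percent of reads counted on miRNAs also differed between libraries, and its part in this spread was not tested.

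Ratios within a library do not depend on its total. miR-10a-5p stood at 0.103% to 0.253% of miR-10b-5p, with a median of 0.128%. miR-10d-5p stood at 9.28% to 28.0% of miR-10b-5p, with a median of 17.7%. Of 101 miRNAs averaging at least 50 CPM, these 2 had the smallest spread of the log2 ratio to miR-10b-5p over the 18 libraries, an SD of 0.36 for miR-10a-5p and 0.43 for miR-10d-5p, against a median SD of 1.75. miR-10c-5p ranked 23rd, with an SD of 1.38, and miR-10b-2-3p ranked 96th, with 3.42. The mature sequences of miR-10a-5p and miR-10b-5p are close to each other in vertebrates, and whether miR-10b-5p reads were counted on miR-10a-5p was not tested. Whether they were counted on miR-10d-5p was not tested either. The levels of miR-10a-5p and miR-10d-5p, and the small spread of their ratios to miR-10b-5p, are therefore uncertain.

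miR-10c-5p stood at 0.269% to 8.97% of miR-10b-5p. In N. furzeri in diapause the ratio was 3.74%, 0.791%, 0.800%, 1.38% and 1.76%, and in N. furzeri not in diapause 1.25%, 0.269% and 0.447%. In A. striatum it was 2.30%, 5.64%, 3.02% and 4.43%. Every A. striatum library was above every N. furzeri library not in diapause, and the first N. furzeri diapause library lay among them. C. occidentalis had 1.95% and N. papilliferus had 1.79%, against 8.35% in A. leohoignei, 1.41% in A. lineatus, 0.969% in R. cylindraceus and 8.97% in E. dageti monroviae.

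Between the arms, there were 6939 to 182541 counts of miR-10b-5p for each count of miR-10b-3p, with a median of 23827. miR-10b-3p was 0.00514%, 0.00424%, 0.00280%, 0.00137% and 0.00160% of miR-10b-5p in N. furzeri in diapause and 0.00415%, 0.00385% and 0.00679% in N. furzeri not in diapause. The lowest ratios in N. furzeri were those of the 2 GRZ x MZZW libraries. A. striatum had 0.00487%, 0.0124%, 0.00345% and 0.0118%.

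Which of the 2 miR-10b 3p arms was more abundant differed between libraries. miR-10b-2-3p was 0.415, 6.87, 1.66, 0.0476 and 0.214 times miR-10b-3p in N. furzeri in diapause and 0.70, 3.75 and 2.94 times in N. furzeri not in diapause. In A. striatum it was 11.2, 5.03, 13.6 and 18.6 times. miR-10b-2-3p was the more abundant 3p arm in all 4 A. striatum libraries, and either arm was the more abundant in N. furzeri. R. cylindraceus had 115 counts of miR-10b-2-3p and 1 of miR-10b-3p, and C. occidentalis had 1 and 3.

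**Figure D2:**
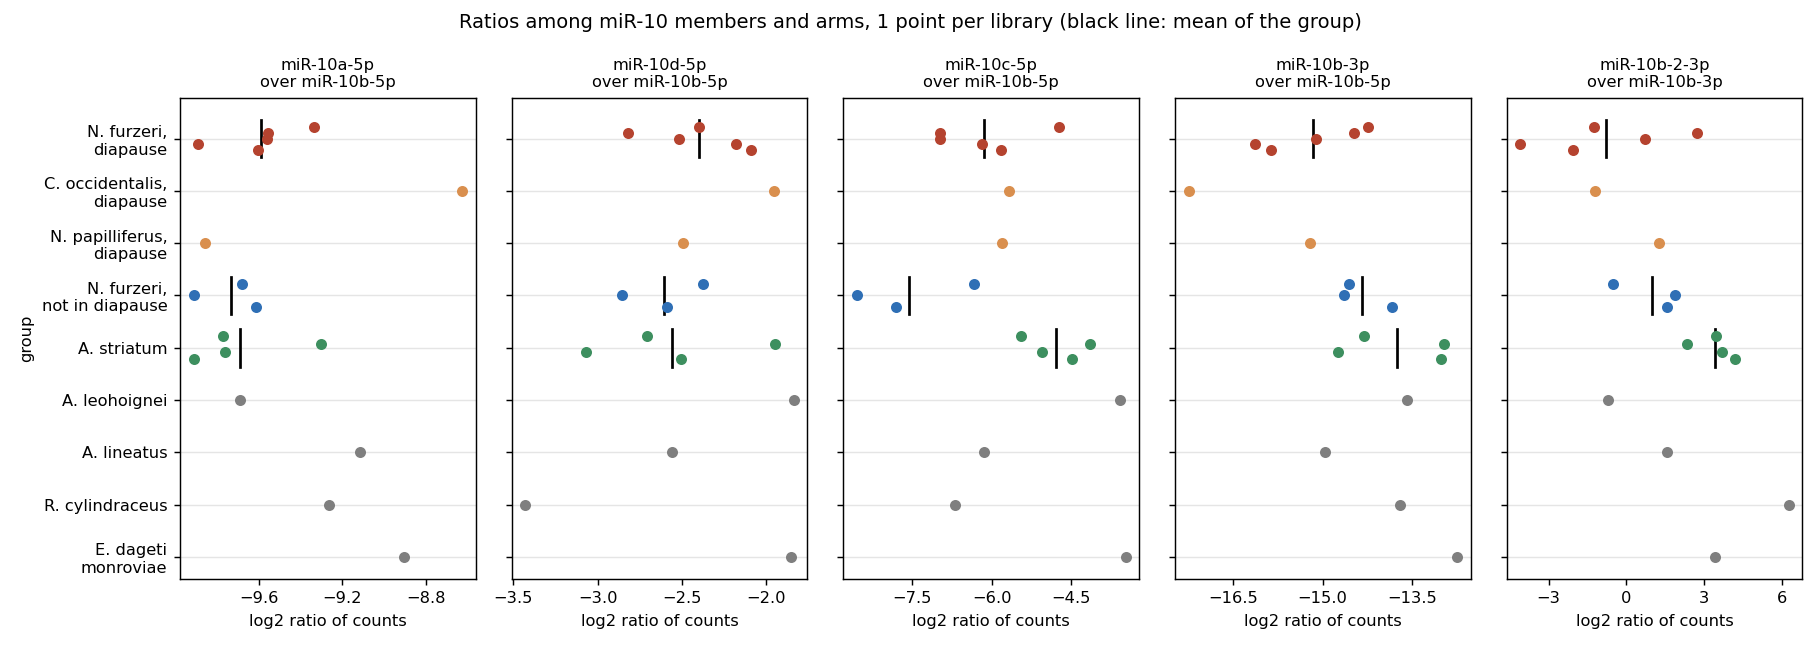
Log2 ratios of counts between members (0.5 added to each count) for 5 pairs, 1 point per library in 9 groups, with the group mean as a black line; each panel has its own x axis. The ratios of miR-10a-5p and miR-10d-5p to miR-10b-5p span 1.29 and 1.60 log2 units, and those of miR-10c-5p span 5.06.

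**Figure D3:**
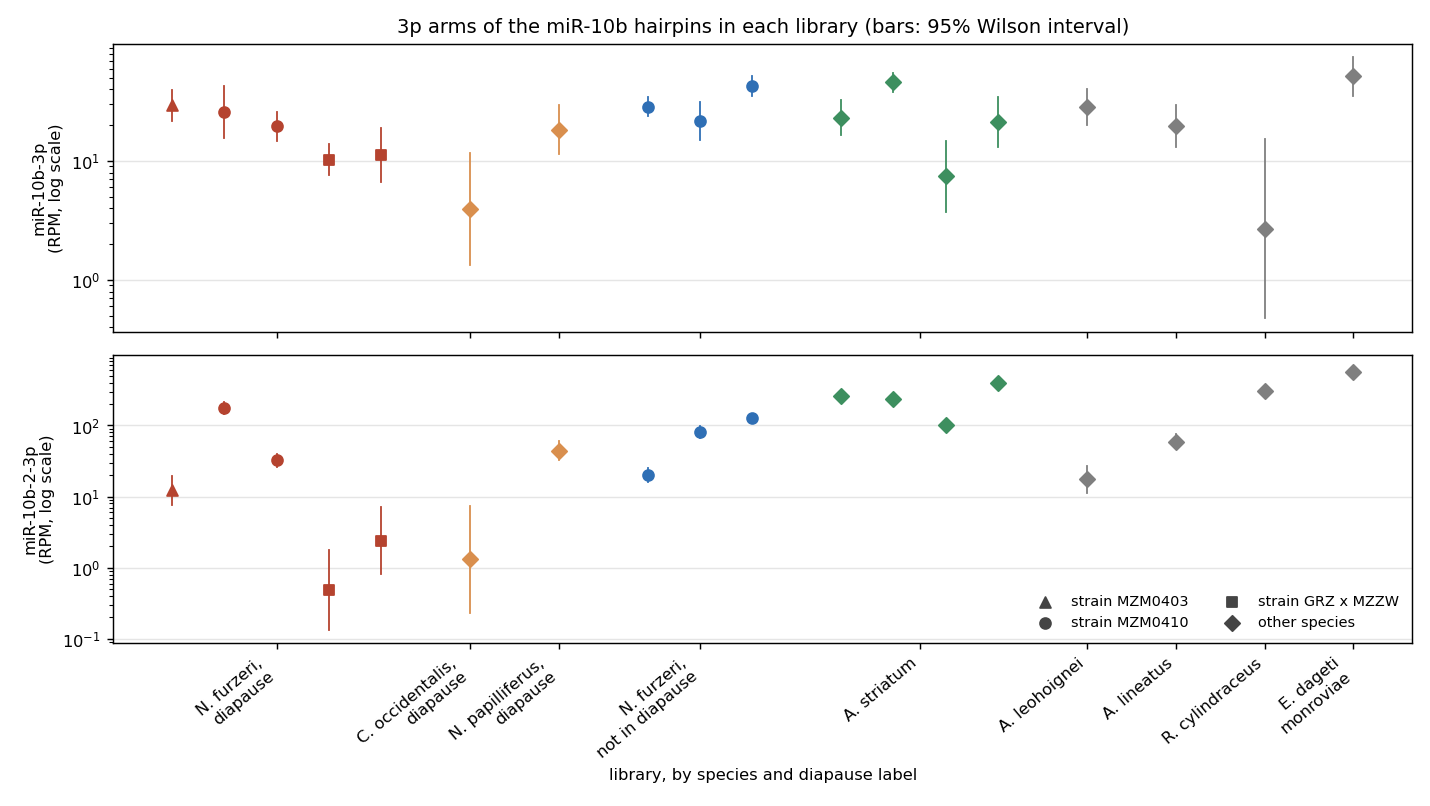
Levels of miR-10b-3p (upper panel) and miR-10b-2-3p (lower panel) in RPM on log axes that differ between panels, 1 point per library, with 95% Wilson intervals as bars and N. furzeri strains as marker shapes. In the lower panel the GRZ x MZZW and C. occidentalis libraries are lowest, at 0.487 to 2.40 RPM, and E. dageti monroviae is highest, at 564.5 RPM.

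The first comparison asked which members differed between N. furzeri embryos in diapause and not in diapause. No member passed edgeR's quasi-likelihood test at an adjusted p of 0.05. Neither did any other miRNA: 0 of 161 were called, or 0%, with 24 at an unadjusted p under 0.05 and 4 called by DESeq2. Of the members, 6 of 8 passed the filter on low counts, 0 had an unadjusted p under 0.05, and DESeq2 called 0, with 1 at an unadjusted p under 0.05. Their median log2 fold change was 0.38, against 0.14 for all miRNAs tested.

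miR-10c-5p had the largest difference, with 1.44 on the log2 scale (SE 0.73, edgeR adjusted p = 0.370). It was 2.55 without non-diapause replicate 1, 0.97 without diapause replicate 4 and 0.11 in MZM0410 alone. Without diapause replicate 1, which stood apart in neural miRNAs, it was 1.53, and miR-10a-5p, miR-10b-5p and miR-10d-5p had 0.65, 0.64 and 0.95; edgeR called 0 members there too. miR-10d-5p had 0.64 (SE 0.63), miR-10a-5p 0.41 (SE 0.43) and miR-10b-5p 0.35 (SE 0.57), with adjusted p-values of 0.666, 0.6995 and 0.719. The 3p arms had negative values, -0.72 (SE 0.37, adjusted p = 0.371) for miR-10b-3p and -1.08 (SE 1.23, adjusted p = 0.710) for miR-10b-2-3p. In TMM-scaled CPM the groups did not overlap for 1 of the 6 members tested, miR-10b-3p, against 14 of all 161 miRNAs. Among MZM0410 libraries alone the log2 fold changes of miR-10b-5p and miR-10d-5p were -0.07 and -0.11 and that of miR-10b-2-3p was 0.06, all opposite in sign to those over all strains. Strain, sequencing lane or pool and length of diapause were partly confounded with diapause.

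None of the 5 ratios that could be tested separated these groups, where 1.88% of 160 miRNAs did so in their ratio to miR-10b-5p. The log2 ratio of miR-10c-5p to miR-10b-5p averaged -6.14 ± 0.93 in diapause (SD, n = 5) and -7.56 ± 1.13 not in diapause (SD, n = 3), a difference of 1.42 (SE 0.77, two-sided exact permutation p = 0.107). It was 1.07 without diapause replicate 1, 2.03 without non-diapause replicate 1 (exact p = 0.0476, the smallest that such groups allow) and 0.58 in MZM0410 alone. The differences for miR-10a-5p and miR-10d-5p over miR-10b-5p were 0.15 (SE 0.13) and 0.21 (SE 0.19), with exact permutation p of 0.286 and 0.304. Those for miR-10b-3p over miR-10b-5p and miR-10b-2-3p over miR-10b-3p were -0.82 (SE 0.45) and -1.76 (SE 1.39), with exact permutation p of 0.196 and 0.357. Over all 16 ratio tests made here, the lowest adjusted p in this comparison was 0.4, and the smallest exact p that 5 against 3 libraries allow is 0.0179.

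The second comparison set N. furzeri not in diapause against A. striatum, 2 species in the same state. edgeR called 34 of 157 miRNAs, or 21.7%, of which 12 were higher and 22 lower in N. furzeri. No member was among them. Of the 6 members tested, 1 had an unadjusted p under 0.05, and DESeq2 called 0, with 3 at an unadjusted p under 0.05. The members' median log2 fold change was 0.82, against -0.00 for all miRNAs tested.

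miR-10d-5p, miR-10b-5p and miR-10a-5p had log2 fold changes of 1.07 (SE 0.62), 1.05 (SE 0.69) and 1.01 (SE 0.54), with edgeR adjusted p-values of 0.205, 0.266 and 0.195. miR-10b-3p had 0.63 (SE 0.53). miR-10c-5p and miR-10b-2-3p had the opposite sign, with -1.16 (SE 0.67, adjusted p = 0.205) and -1.46 (SE 0.57, unadjusted p = 0.0263, adjusted p = 0.0898). miR-10c-5p was at -2.28 without N. furzeri replicate 1 (edgeR unadjusted p = 0.00791, adjusted p = 0.0574) and at -0.72 without N. furzeri replicate 2. Over its alternatives the adjusted p ran between 0.0574 and 0.492. The miR-430 rows differed strongly in share between these groups, as given above, and their part in the members' values was not tested.

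The ratio of miR-10c-5p to miR-10b-5p did not overlap between these species. Its log2 value averaged -7.56 ± 1.13 in N. furzeri not in diapause (SD, n = 3) and -4.78 ± 0.57 in A. striatum (SD, n = 4). The difference of -2.77 (SE 0.71), or 6.83-fold lower in N. furzeri, had a two-sided exact permutation p of 0.0286, the smallest these groups allow, and an adjusted p of 0.229 over 16 tests. The difference kept its sign in all 10 alternatives, between -3.39 and -2.23, and was -2.68 within sequencing pool 3 alone.

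The ratio of miR-10b-2-3p to miR-10b-3p also did not overlap. Its log2 value averaged 0.98 ± 1.30 in N. furzeri not in diapause (SD, n = 3) and 3.41 ± 0.78 in A. striatum (SD, n = 4), a difference of -2.44 (SE 0.85), or 5.42-fold lower in N. furzeri (exact permutation p = 0.0571, adjusted p = 0.305). Of all miRNAs, 40.4% of 156 did not overlap between these species in their ratio to miR-10b-5p, against 2 of 6 member ratios. Non-overlap in a ratio to miR-10b-5p, as for miR-10c-5p, was thus common. The ratios of miR-10b-2-3p to miR-10b-3p and of miR-10d-3p to miR-10d-5p have other denominators, so that share is no direct background for them. The ratios of miR-10a-5p and of miR-10d-5p to miR-10b-5p each differed by -0.05 (SE 0.16 and 0.27, exact permutation p = 0.886 for both). Those of miR-10b-3p to miR-10b-5p and miR-10d-3p to miR-10d-5p differed by -0.59 (SE 0.52) and -0.60 (SE 0.75), with exact permutation p of 0.343 and 0.457.

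The third comparison set the 3 annual species in diapause against the 5 non-annual species, with the species as the replicate; annual life and diapause cannot be told apart in it. edgeR called 0 of 173 miRNAs, or 0%, with 21 at an unadjusted p under 0.05 and 8 called by DESeq2. Of the 6 members tested 0 were called, 1 had an unadjusted p under 0.05, and DESeq2 called 0, with 1 at an unadjusted p under 0.05. The members' median log2 fold change was 1.06, against -0.06 for all miRNAs tested.

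miR-10d-5p, miR-10a-5p and miR-10b-5p had log2 fold changes of 1.65 (SE 1.04), 1.499 (SE 1.03) and 1.42 (SE 1.0999), with edgeR adjusted p-values of 0.483, 0.504 and 0.544. Without A. lineatus they were at 2.41, 2.65 and 2.44, each with an adjusted p of 0.255. Without C. occidentalis they were at 1.08, 0.51 and 1.07, and with A. leohoignei as annual at 1.13, 0.84 and 0.87. miR-10c-5p had 0.69 (SE 0.91) and miR-10b-3p -0.33 (SE 0.90). miR-10b-2-3p had -2.68 (SE 1.20, unadjusted p = 0.0486, adjusted p = 0.389). With library totals in place of TMM, the median of all miRNAs moved by -1.13, and miR-10c-5p then stood at -0.45.

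**Figure D4:**
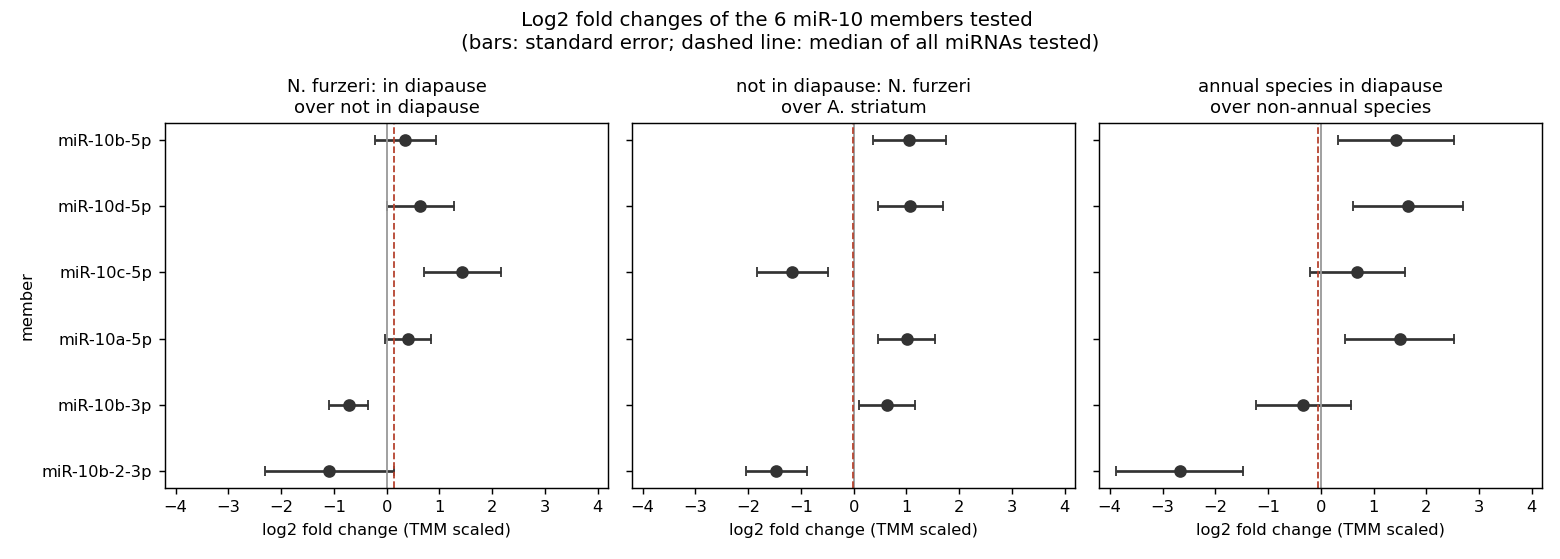
Log2 fold changes of the 6 members tested, with standard errors as bars, in the 3 comparisons; the dashed line is the median of all miRNAs tested. miR-10a-5p, miR-10b-5p and miR-10d-5p lie above 0 in all 3 panels, miR-10b-2-3p lies below 0, and no member had an adjusted p under 0.05.

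By species mean, the ratio of miR-10b-3p to miR-10b-5p was lower in each annual species in diapause than in each species labelled non-annual. It was 0.000548% in C. occidentalis and 0.00257% in N. papilliferus, and 0.00137% to 0.00514% in the N. furzeri diapause libraries. It was 0.00799% in A. leohoignei, 0.00308% in A. lineatus, 0.00499% in R. cylindraceus, 0.0144% in E. dageti monroviae and 0.00345% to 0.0124% in A. striatum. Single N. furzeri diapause libraries overlapped the non-annual range, and the species means did not. The gap between the means was narrow. A. lineatus, with 23 counts of miR-10b-3p, had a log2 ratio of -14.96. N. papilliferus, with 17 counts, had -15.21, and the Wilson intervals of their miR-10b-3p shares overlapped. N. furzeri in diapause averaged -15.17, with -16.14 and -15.88 in the GRZ x MZZW libraries and -15.11 to -14.23 in the others. N. furzeri not in diapause had 0.00385% to 0.00679%, all above A. lineatus, and with these libraries standing for the species the groups overlapped, with a difference of -1.85 (exact permutation p = 0.0357). They also overlapped with A. leohoignei counted as annual, with a difference of -1.52 (exact permutation p = 0.114).

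On the log2 scale the species averaged -15.88 ± 1.19 for the annual species (SD, n = 3) and -13.75 ± 0.79 for the non-annual species (SD, n = 5). The difference of -2.13 (SE 0.78), or 4.37-fold lower in the annual species, had a two-sided exact permutation p of 0.0179, the smallest these groups allow, and an adjusted p of 0.229. C. occidentalis rests on 3 counts of miR-10b-3p and R. cylindraceus on 1; without C. occidentalis the difference was -1.44, and without R. cylindraceus -2.12. The exact permutation p was 0.0571 when R. cylindraceus, A. leohoignei, A. striatum or E. dageti monroviae was left out. In the ratio to miR-10b-5p, 16.3% of 172 miRNAs did not overlap between these species, against 1 of 5 member ratios. These 5 include the ratio of miR-10b-2-3p to miR-10b-3p, which has another denominator.

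The other ratios overlapped. miR-10b-2-3p over miR-10b-3p differed by -3.05 (SE 1.38, exact permutation p = 0.125) and miR-10c-5p over miR-10b-5p by -0.94 (SE 0.67, exact permutation p = 0.339). By species mean, the overlap for miR-10b-2-3p over miR-10b-3p came from A. leohoignei alone, at a log2 ratio of -0.69. The highest annual species, N. papilliferus, had 1.25, and the next non-annual species, A. lineatus, had 1.56. The difference was -3.92 without A. leohoignei and -4.03 with it as annual (exact permutation p = 0.0286, not adjusted). C. occidentalis and R. cylindraceus rest on few counts here, as given above. By library, N. furzeri diapause replicate 2, at 2.74, lay above A. lineatus and above A. striatum replicate 2, at 2.32. Single libraries thus overlapped without A. leohoignei too. miR-10a-5p and miR-10d-5p over miR-10b-5p differed by -0.02 (SE 0.41) and 0.16 (SE 0.34), with exact permutation p of 0.929 and 0.714.

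Levels of the members were also compared with each other over the 9 group means, as log2 of TMM-scaled CPM plus 1. miR-10b-5p had Pearson's r of 0.97 with miR-10d-5p and with miR-10a-5p, 0.72 with miR-10c-5p, 0.65 with miR-10b-3p and -0.37 with miR-10b-2-3p. These are descriptions without a test, since the groups share library depth and scaling. R. cylindraceus, with 1 library, was the lowest group for miR-10b-5p, miR-10c-5p and miR-10b-3p, at log2 levels of 14.99, 8.31 and 1.39. The next lowest groups had 16.93, 12.08 and 2.89. The r of 0.72 and 0.65 may thus rest largely on R. cylindraceus, and they were not recomputed without it. Outside the family, the miRNAs most like miR-10b-5p among 97 candidates were miR-206-3p, a skeletal muscle miRNA, with r of 0.94 over 9 groups, miR-182-5p, a miRNA of sensory organs, with 0.92, and miR-126a-5p, from an endothelial gene, with 0.86; reads of miR-126a-5p may be shared with miR-126b-5p. miR-10d-5p had the same 3, with r of 0.96, 0.90 and 0.89. Over the 18 libraries the values for miR-10b-5p were 0.79, 0.71 and 0.68.

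The other miRNAs of the Hox clusters and the related miR-99 and miR-100 families were counted for context. Of 5 miR-196 rows, which lie between posterior Hox genes, 1 was tested in each comparison and 0 were called. miR-196a-5p had log2 fold changes of -0.10 (SE 0.40) for diapause in N. furzeri, 0.68 (SE 0.41) for N. furzeri against A. striatum and -0.27 for annual against non-annual species. Of 10 miR-99, miR-100 and miR-125 rows, which resemble miR-10 or share clusters with those that do, 6, 6 and 5 were tested in these comparisons and 0 were called. miR-100-5p had log2 fold changes of 1.31 (SE 0.96), 0.31 (SE 0.45) and 1.95 (SE 0.58), the last with an adjusted p of 0.292. miR-125a had 2.97 (SE 1.47), -2.61 (SE 0.96) and 1.84 (SE 0.72), with edgeR adjusted p-values of 0.369, 0.0783 and 0.369. It was highest of its group in N. furzeri diapause replicate 1, at 1025 RPM, and in A. striatum replicate 4, at 636 RPM.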

How the data were processed

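Small RNA libraries were made from total RNA of whole embryos with Illumina's TruSeq kit for small RNAs, per the labels' protocols. The submitters' processing notes list Bowtie 1.1.2, Bowtie 1.0.0, bcl2fastq 1.8.3 and CASAVA 1.8.2, without their roles. Not given in the sources used here are the reference aligned to, its mismatch limit and how a read matching several miRNAs was counted, so counts of near-identical members may be shared, and a species whose sequence differs from the reference may lose counts. Raw counts of each mature miRNA in each library, as the authors deposited them, were used throughout; 2 columns that match no sample were left out. Lane 1 held 8 libraries, pool 3 held 9 and pool 2 held 1; all N. furzeri libraries not in diapause were of pool 3.

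Shares are percent of a library's miRNA counts. Counts of all miRNAs were tested with edgeR 4.0.16 in R 4.3.3 (filterByExpr, TMM, quasi-likelihood test, Benjamini-Hochberg adjustment over all miRNAs tested, threshold 0.05), which was checked on simulated data; the SE is the log2 fold change divided by the root of F. For annual against non-annual species the counts were summed per species. Ratios were log2 of counts plus 0.5, compared by two-sided exact permutation tests and adjusted over all 16; a ratio was tested only where both members had a group median of at least 3 counts. Wilson 95% intervals cover counting error only. Nothing says that samples of a group came from separate clutches, so p-values reflect only sample-to-sample spread, which could be technical. No 2 libraries of a group agreed within counting noise (chi-square per degree of freedom at least 248).

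The rule names all 8 members; miR-10c-3p and miR-10d-3p, left out by the filter on low counts, are given as counts, and the ratio of miR-10d-3p to miR-10d-5p could be tested in 1 comparison. The miRNAs most like the 2 main members had to average at least 50 CPM. The members, lists and tests were chosen with earlier results of these data known. Alternatives were DESeq2 1.42.0, its size factors, library totals, scaling by miRNAs outside the family, other filters, and libraries or species left out. Others were pool 3 or MZM0410 alone, lane or pool as a covariate, 1 added to counts, and ratios of summed counts. Further ones were other places for A. leohoignei, N. furzeri not in diapause for its species, and shares outside miR-430. Mature sequences and genomic positions were not used here.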

Additional observations from a re-analysis of the deposited data

Results flagged for a closer look

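In N. furzeri in diapause, replicate 2 had 177.8 RPM of miR-10b-2-3p, while the other diapause libraries lay between 0.487 and 32.5 RPM. The gap to the next library was 0.819 of the group's range, above Dixon's critical value of 0.710 for 5 samples. It was the only such value among 25 groups of values examined, of which chance alone would mark about 1 in 20 if values were normally distributed. These RPM values were taken without logs and came from libraries of different strains, so that rate may not hold here. Replicate 2 was of strain MZM0410 and lane 1, with 579183 counts, the fewest of the N. furzeri libraries. Of its reads in the length range given above, 3.02% were counted on miRNAs, against 11.7% to 77.3% in the other N. furzeri libraries. E. dageti monroviae, R. cylindraceus and A. striatum replicate 4 were also low, at 1.43%, 3.78% and 6.29%. They had 564.5, 309.2 and 396.5 RPM of miR-10b-2-3p. A. striatum replicates 1 and 2, at 16.8% and 26.7%, still had 258.9 and 231.9 RPM. Whether this percentage bears on miR-10b-2-3p was not tested.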

How the results depend on the processing

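No paired analysis was possible because the labels give the libraries no shared replicate numbers. No member was called under any alternative. A sign changed in 18 recomputed fold changes or ratio differences, none of them called, and the cause was not tested. For diapause in N. furzeri the log2 fold change of miR-10b-5p was -0.14 to 0.64 with single libraries left out, and in MZM0410 alone miR-10b-5p had -0.073, miR-10d-5p -0.11 and miR-10b-2-3p 0.062. Over all 17 alternatives the range was -0.14 to 1.07 for miR-10b-5p, -0.11 to 1.38 for miR-10d-5p and 0.048 to 1.01 for miR-10a-5p. In MZM0410 alone the ratio difference of miR-10d-5p to miR-10b-5p was -0.060 and that of miR-10b-2-3p to miR-10b-3p was 0.76. Without diapause replicate 4, the ratio difference of miR-10a-5p to miR-10b-5p was 0.22 (exact permutation p = 0.0286). With single libraries left out of N. furzeri against A. striatum, the ratio differences to miR-10b-5p were -0.12 to 0.081 for miR-10a-5p, with 0.04 without N. furzeri replicate 2, and -0.22 to 0.15 for miR-10d-5p, with 0.08 without that library. For annual against non-annual species, miR-10b-3p had 0.12 with N. furzeri not in diapause for its species, and miR-10c-5p had -0.45 with library totals. With a species left out, the ratio differences to miR-10b-5p were -0.39 to 0.23 for miR-10a-5p, with 0.09, 0.03 and 0.08 without N. furzeri, A. lineatus and E. dageti monroviae, and -0.082 to 0.32 for miR-10d-5p, with -0.00054 without C. occidentalis.

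The number of ratios whose groups do not overlap was 0 for diapause in N. furzeri, 0 to 1 with single libraries left out, and 1 in pool 3 alone and in MZM0410 alone. For annual against non-annual species it was 1, or 1 to 2 with a species left out, 2 without A. leohoignei and 0 with N. furzeri not in diapause for its species. Outside miR-430, the family's share was 84.2% in N. furzeri not in diapause and 68.7% in A. striatum. The median of all miRNAs moved by -0.33 in N. furzeri against A. striatum with library totals, where 19 miRNAs were called, 21.1% of them higher, against 34 and 35.3% with TMM. That count was 7 to 44 with single libraries left out. Counts under 10 limit the 3p arms of miR-10c and miR-10d.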
